A study of Mus musculus with 16 samples.

Results

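The histone genes described here are the 29 genes, of 22180 measured through a probe set with a single gene symbol, whose symbol starts with H1f, H2ac, H2bc, H3c, H4c or the older Hist prefix followed by a digit. For each gene the probe set with the highest mean over the 16 arrays was taken. The 29 comprise 8 genes of the linker histone class H1, 6 of class H2A, 8 of class H2B and 7 of class H4. No H3 gene had a probe set of its own, and 38 further probe sets, shared by 2 to 13 genes and including 12 that hold only H3 symbols, are described separately. Histone genes of a class are near-identical in sequence, so a probe set with a single symbol may still pick up transcripts of its paralogs, and the value of each gene is uncertain to that extent.

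The arrays profiled splenic CD8 T cells sorted from C57BL/6 females (C56BL/6 in the strain label) that had carried transplanted chronic lymphocytic leukemia (CLL) cells for 6 weeks. The leukemia came from Eµ-TCL1 mice, in which a TCL1 transgene under an immunoglobulin enhancer is expressed in B cells and gives a CLL-like disease. All cells were Lin- TCRb+ CD8+. Naive cells were gated as CD127hi and CD44low, memory cells as CD127hi and CD44hi, and both effector gates as CD127low with intermediate to high CD44, divided by PD-1 into PD-1int and PD-1hi. Each of these 4 subsets has 4 arrays. Every array comes from a leukemia-bearing mouse, and no leukemia-free control is analysed here. The labels state neither whether the arrays of a subset come from separate mice nor whether all sorted T cells were the recipients' own, so p-values here reflect no more than the scatter among these samples, which may be technical.

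Core histones H2A, H2B, H3 and H4 form the octamer around which DNA is wrapped, and H1 binds the linker DNA between octamers. Most genes for them lie in clusters, are transcribed together in S phase when new chromatin is assembled, and give mRNAs that end in a stem-loop bound by Slbp instead of a poly(A) tail. A few members depart from this: H1f10 is expressed outside S phase, H1f6, H1f7, H2ac1 and H2bc1 are known from the testis and H1f8 from the oocyte. By the RefSeq annotation on GRCm38.p6, 21 of the 29 lie on chromosome 13 between positions 21722044 and 23934913, 5 on chromosome 3 between 96219885 and 96270192, 2 on chromosome 6 and 1 on chromosome 15.

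All values are log2 expression as the authors deposited them, between 2.35 and 14.13 over the file, with array medians from 6.39 to 6.49. Differences were tested with limma over all 22180 genes, and a call required a p under 0.05 after Benjamini-Hochberg adjustment. In these bulk samples, fewer cells expressing a gene and less RNA per cell cannot be told apart. The sort genes followed their gates: Il7r, which encodes CD127, had a naive mean of 12.97, a memory mean of 12.57, a PD-1int mean of 7.49 and a PD-1hi mean of 4.91, and Pdcd1, which encodes PD-1, had means of 6.80, 7.10, 10.12 and 11.40 in that order. Of 4 T-cell genes, Cd3d and Cd8a were not called against naive cells, while in PD-1int and PD-1hi cells Cd8b1 fell by 0.32 and 0.33 and Cd3e rose by 0.22 and 0.37. Of 11 measured B-cell and CLL markers none was called higher in any subset than in naive cells (1, 1 and 0 at an unadjusted p under 0.05 in memory, PD-1int and PD-1hi), and Cd79b and Bank1 fell in both effector subsets. The B-cell markers Ms4a1 and Cd79a had means of 5.32 to 5.54 and of 6.12 to 6.32. Cd79b was brighter, with means of 7.88, 7.73, 7.16 and 6.91 in naive, memory, PD-1int and PD-1hi cells. Bank1 had 7.30, 6.78, 6.47 and 6.39 in the same order, and the median of all gene means was 6.61. As a mean of values centred on each gene, the B-cell list ranged over -0.03 to 0.20 in naive arrays, -0.07 to 0.18 in the memory arrays, -0.15 to 0.14 in the PD-1int arrays and -0.12 to 0.08 in the PD-1hi arrays. The myeloid list ranged over -0.25 to -0.01 in naive arrays, -0.28 to -0.07 in the memory arrays, 0.05 to 0.22 in the PD-1int arrays and 0.11 to 0.20 in the PD-1hi arrays, so that both effector subsets lay above the others. Of other markers, 1 of 9 myeloid genes (Itgam) rose in both effector subsets, 1 of 4 erythroid and platelet genes (Ppbp) in PD-1hi cells, 1 of 4 CD4 T-cell genes (Zbtb7b) in all 3 subsets and 1 of 2 natural killer genes (Klrb1c) in memory cells, and their part in the results was not tested. Over all genes 6.7%, 11.9% and 13.4% rose in memory, PD-1int and PD-1hi cells. The files carry no detection calls, so none of these markers can be called absent.

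Every histone gene that passed the test against naive cells was higher, and more of them passed in PD-1hi than in PD-1int or memory cells. In PD-1hi cells 15 of 29 rose (51.7%, against 13.4% of all genes) and 0 fell (against 13.7%), with 1, H1f8, lower at an unadjusted p under 0.05. The median difference over the 29 was 0.62, and -0.01 over all genes. In PD-1int cells 12 rose (41.4%, against 11.9%) and 0 fell (against 10.8%; 0 at an unadjusted p under 0.05), with a median of 0.40. In memory cells 7 rose (24.1%, against 6.7%) and 0 fell (against 5.02%), with H2bc9 the 1 member lower at an unadjusted p under 0.05, and a median of 0.11. The 7 genes called in memory were all called in PD-1int and PD-1hi cells, and the 12 called in PD-1int cells were all called in PD-1hi cells. These 3 comparisons share the naive arrays. At least a 2-fold rise was reached by 5 genes for memory, 9 for PD-1int and 11 for PD-1hi cells, against 1.33%, 3.09% and 3.76% of all genes.

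**Figure D1:**
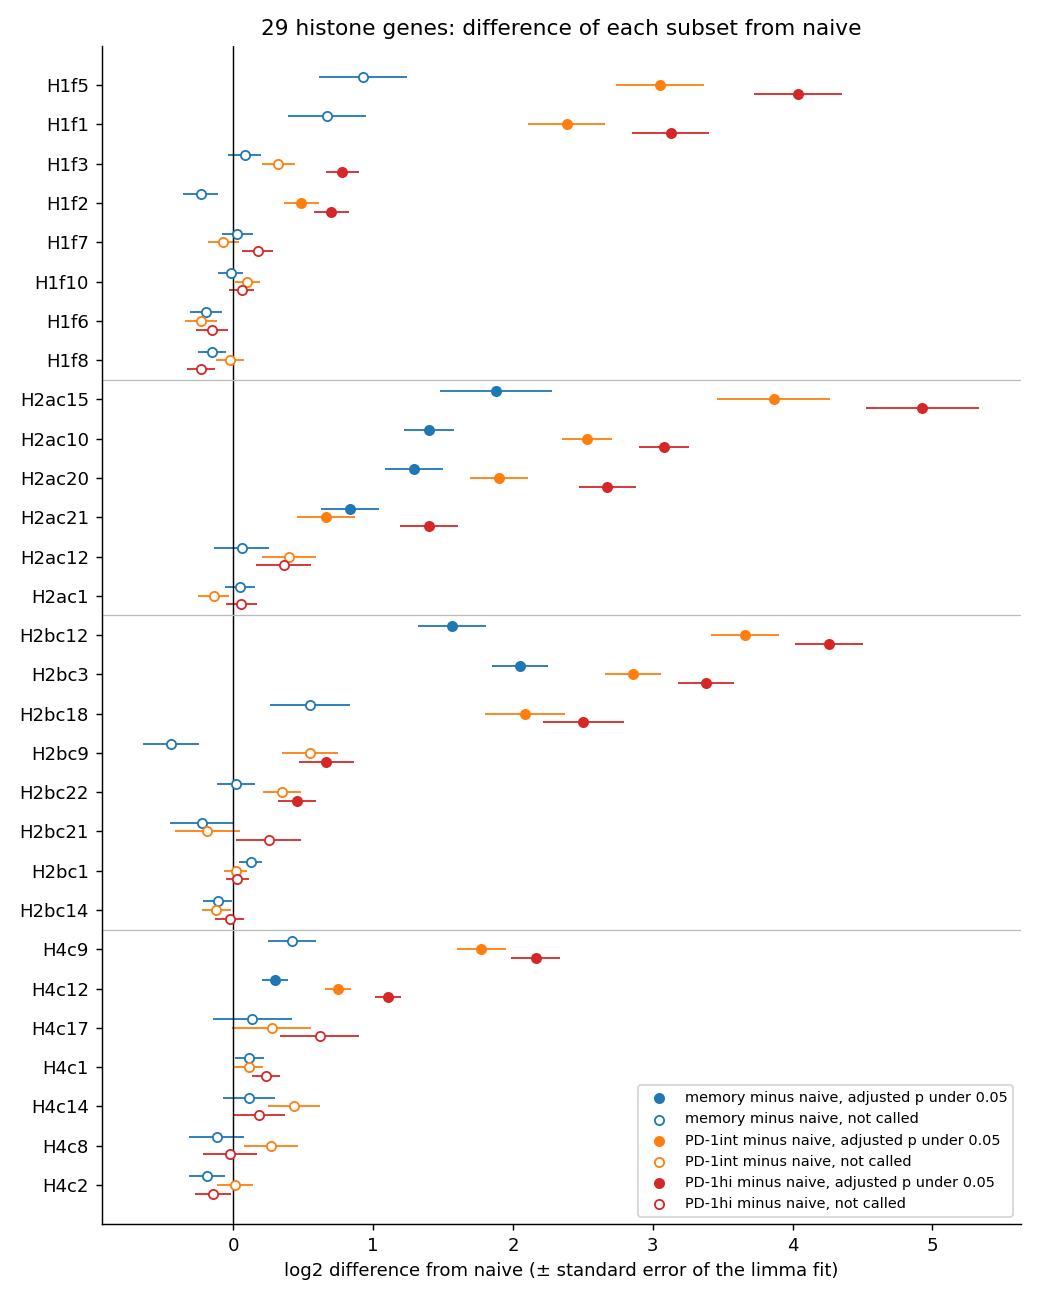
Log2 difference of memory (blue), PD-1int (orange) and PD-1hi (red) from naive cells for the 29 histone genes, grouped by class; bars are standard errors of the limma fit over 4 arrays a subset, and filled points have an adjusted p under 0.05. H2ac15 reaches 4.93 and H2bc12 4.26 in PD-1hi cells, while 14 genes have no filled point.

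By position, 12 of the 21 members on chromosome 13 and 3 of the 5 on chromosome 3 rose in PD-1hi cells, and none of the 3 on chromosomes 6 and 15 was called. Of all genes 13.4% rose there, so the lack of a call among 3 genes is not read as a result of position. The 14 members called in no comparison included the germ-cell genes H1f6, H1f7, H1f8, H2ac1 and H2bc1, and H1f10. Probe sets near the lower end of the scale may carry little signal from their gene: 6 members had a mean below the 10th percentile of all genes (4.41), and 14 of the 29 had means above the 40th percentile (6.17), 11 of which rose in PD-1hi cells.

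Of the 8 linker histone genes, 4 rose in PD-1hi cells, 3 in PD-1int cells and none in memory cells, against 13.4%, 11.9% and 6.7% of all genes. H1f5, which encodes the somatic linker histone H1.5, had values of 4.36, 4.16, 3.56 and 5.22 in the 4 naive arrays, 5.67, 5.11, 4.98 and 5.25 in memory, 6.84, 8.02, 7.18 and 7.48 in PD-1int and 8.65, 8.51, 7.57 and 8.73 in PD-1hi cells. Both effector subsets lay above every naive and memory array, and PD-1hi overlapped PD-1int through array 3. The difference from naive was 4.04 ± 0.31 (SE, n = 4 a subset) in PD-1hi cells, a 16.5-fold rise (adjusted p = 1.15e-08), and 3.05 ± 0.31 in PD-1int cells (adjusted p = 6.65e-07). In memory it was 0.93 ± 0.31, which did not pass (adjusted p = 0.0663), but did pass without naive 4 (adjusted p = 0.00909), with array weights (adjusted p = 0.0357) and without the dimmest genes (adjusted p = 0.0462). Over all alternatives its adjusted p ran from 0.00909 to 0.391. The naive mean of H1f5, 4.33, lay below the 10th percentile of gene means (4.41), so the size of its fold is uncertain. Its naive and memory means (4.33 and 5.25) were both below the limit for the dimmest genes (6.17), which it passed through its effector arrays.

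H1f1, the gene of linker histone H1.1, had values of 4.15, 3.30, 3.96 and 4.34 in naive, 5.02, 4.55, 3.82 and 5.04 in memory, 5.54, 6.56, 6.45 and 6.73 in PD-1int and 6.96, 6.92, 7.12 and 7.27 in PD-1hi cells. Naive and memory arrays overlapped, and PD-1int and PD-1hi arrays stood apart from them and from each other. The rise over naive was 3.13 ± 0.28 in PD-1hi (adjusted p = 6.36e-08) and 2.38 ± 0.28 in PD-1int cells (adjusted p = 2.98e-06). The memory difference of 0.67 ± 0.28 did not pass (adjusted p = 0.148). The naive mean of H1f1, 3.94, lay below the 10th percentile of gene means (4.41), so the size of these differences is uncertain.

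H1f2 and H1f3, the genes of H1.2 and H1.3, moved less. H1f2 had 6.59, 6.91, 6.94 and 6.62 in naive, 6.38, 6.61, 6.32 and 6.81 in memory, 7.13, 7.24, 7.47 and 7.16 in PD-1int and 7.60, 7.59, 7.50 and 7.17 in PD-1hi cells. Both effector subsets lay above all naive and memory arrays and overlapped each other, and the memory mean (6.53) was the lowest. H1f2 rose by 0.49 ± 0.13 in PD-1int (adjusted p = 0.00798) and by 0.70 ± 0.13 in PD-1hi cells (adjusted p = 0.000269). H1f3 had 5.24, 5.27, 5.19 and 5.21 in naive, 5.24, 5.29, 5.28 and 5.43 in memory, 5.49, 5.51, 5.55 and 5.64 in PD-1int and 5.92, 5.86, 5.75 and 6.49 in PD-1hi cells. The PD-1hi arrays lay above all others, with the fourth highest. H1f3 rose by 0.78 ± 0.12 in PD-1hi cells (adjusted p = 3.93e-05), and its PD-1int difference of 0.32 ± 0.12 missed the threshold (adjusted p = 0.0570; 0.00939 to 0.136 over the alternatives).

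The remaining H1 genes, H1f6, H1f7, H1f8 and H1f10, differed from naive by -0.23 to 0.17 in the 3 comparisons, and none passed. A p that misses the threshold does not show equal levels: the 95% interval of the PD-1hi difference was -0.44 to -0.02 for H1f8 and -0.13 to 0.25 for H1f10. In memory no H1 gene was called in the fit of all 16 arrays (limma; 2 of 8 higher and 0 lower at an unadjusted p under 0.05).

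The promoters of the H1 genes are shown because the members that rose and H1f6, which did not, carry some of the same elements. Each run is the 130 bases before the annotated gene start, 5′ to 3′ on the gene's strand, from RefSeq on GRCm38.p6. Capitals mark the element known as the H1 box (AAACACA) and, where present, a match to the TATA box, spelled as TATAAA.
H1f1 (chr13:23763538-23763667, plus strand): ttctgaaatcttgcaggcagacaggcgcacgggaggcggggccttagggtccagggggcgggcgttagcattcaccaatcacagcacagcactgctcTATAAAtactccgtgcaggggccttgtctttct
H1f2 (chr13:23738677-23738806, plus strand): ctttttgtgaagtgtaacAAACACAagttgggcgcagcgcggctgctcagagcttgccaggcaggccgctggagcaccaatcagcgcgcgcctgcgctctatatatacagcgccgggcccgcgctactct
H1f3 (chr13:23554902-23555031, plus strand): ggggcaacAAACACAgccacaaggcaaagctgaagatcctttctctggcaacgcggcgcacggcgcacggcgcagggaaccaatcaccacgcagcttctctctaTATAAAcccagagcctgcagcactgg
H1f5 (chr13:21780626-21780755, minus strand): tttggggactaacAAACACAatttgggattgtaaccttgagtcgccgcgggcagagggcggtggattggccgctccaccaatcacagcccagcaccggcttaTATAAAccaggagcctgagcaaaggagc
H1f6 (chr13:23695681-23695810, plus strand): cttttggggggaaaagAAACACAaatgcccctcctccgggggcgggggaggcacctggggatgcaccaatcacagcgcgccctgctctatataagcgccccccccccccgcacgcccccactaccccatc
The H1 box stood at positions -122 to -112 from the start in H1f2, H1f3, H1f5 and H1f6, 4 of the 8 H1 genes, and in none of these 250-base windows of H1f1, H1f7, H1f8 and H1f10. It occurred on either strand in 6.25% of the 32851 promoters of the table. The H1 box was not confined to H1 genes: it was also found in H2bc14 (-110), H2bc1 (-61, opposite strand) and H2ac1 (-226). H1f6 thus shared the element with 3 genes that rose, and differed in that TATAAA was present in H1f1, H1f3 and H1f5 and not in H1f6. H1f2, which rose, also lacked TATAAA. Only this exact spelling was searched, so a window without it may hold a TATA box of another spelling. Such matches are descriptions of letters and not binding sites.

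H2A was the class with the most calls in memory cells: 4 of 6 passed in memory cells, as did 4 of 6 in either effector subset. Of all genes 6.7%, 11.9% and 13.4% rose in memory, PD-1int and PD-1hi cells. H2ac10 had values of 8.85, 8.79, 8.76 and 8.78 in naive, 10.73, 9.79, 9.71 and 10.56 in memory, 11.06, 11.59, 11.36 and 11.30 in PD-1int and 11.92, 12.03, 11.66 and 11.90 in PD-1hi cells. The 4 subsets did not overlap at any step. Its rise over naive was 1.40 ± 0.18 in memory (adjusted p = 3.05e-05), 2.53 ± 0.18 in PD-1int (adjusted p = 6.15e-09) and 3.08 ± 0.18 in PD-1hi cells (adjusted p = 3.04e-10).

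H2ac15 showed the largest difference of any member. It had 5.20, 3.47, 3.00 and 4.14 in naive, 6.45, 4.79, 5.71 and 6.36 in memory, 7.13, 8.51, 7.65 and 7.97 in PD-1int and 8.999, 8.83, 8.76 and 8.92 in PD-1hi cells. Naive arrays spread most (SD 0.95) and overlapped memory, whereas PD-1hi arrays spread least (SD 0.11) and lay above all others. H2ac15 rose by 1.88 ± 0.40 in memory (adjusted p = 0.00393), by 3.87 ± 0.40 in PD-1int (adjusted p = 7.93e-07) and by 4.93 ± 0.40 in PD-1hi cells, a 30.4-fold rise (adjusted p = 2.28e-08). Its naive mean of 3.95 lay below the 10th percentile of gene means (4.41), so the size of the fold is uncertain.

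H2ac20 and H2ac21 are adjacent genes on chromosome 3, at 96220413 to 96220880 and 96219885 to 96220354. H2ac20 had 7.51, 7.84, 6.88 and 7.07 in naive, 9.01, 8.47, 8.45 and 8.54 in memory, 8.70, 9.57, 9.60 and 9.03 in PD-1int and 10.15, 9.97, 9.95 and 9.94 in PD-1hi cells. Memory and PD-1int overlapped, and PD-1hi lay above every other array. It rose by 1.29 ± 0.21, 1.90 ± 0.21 and 2.68 ± 0.21 in memory, PD-1int and PD-1hi cells (adjusted p = 0.000285, 1.33e-06 and 1.05e-08). H2ac21 had 7.87, 7.36, 6.69 and 6.90 in naive, 8.06, 8.02, 7.87 and 8.22 in memory, 7.48, 8.21, 8.01 and 7.78 in PD-1int and 8.46, 8.48, 8.98 and 8.50 in PD-1hi cells. Its memory mean exceeded its PD-1int mean, and only the PD-1hi arrays stood clear of all others. H2ac21 rose by 0.84 ± 0.21 in memory, by 0.66 ± 0.21 in PD-1int and by 1.40 ± 0.21 in PD-1hi cells (adjusted p = 0.0110, 0.0257 and 3.35e-05). It is the only member with a second probe set, which was dimmer (mean 4.40) and gave -0.11 ± 0.10 in PD-1hi against naive (adjusted p = 0.489), so the 2 probe sets disagree. The PD-1int call was lost without naive 3 or 4 or without PD-1int 2 or 3 (adjusted p = 0.0698 to 0.104), with only the 8 arrays compared (adjusted p = 0.0705) and on averaging both probe sets (adjusted p = 0.161).

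The other 2 H2A genes did not pass in any comparison. H2ac12 lay between 2.94 and 3.92 in all arrays, and testis-type H2ac1 between 6.37 and 6.89.

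Among H2B genes, 2 of 8 rose in memory cells, 3 in the PD-1int subset and 5 in the PD-1hi subset, against 6.7%, 11.9% and 13.4% of all genes. H2bc12 had 4.88, 4.67, 4.74 and 4.82 in naive, 6.65, 5.64, 6.00 and 7.08 in memory, 8.10, 8.44, 8.45 and 8.78 in PD-1int and 9.004, 9.36, 8.53 and 9.27 in PD-1hi cells. Naive, memory and PD-1int did not overlap, and the third PD-1hi array fell within the PD-1int range. H2bc12 rose by 1.56 ± 0.24 in memory (adjusted p = 0.000205), by 3.66 ± 0.24 in PD-1int (adjusted p = 2.16e-09) and by 4.26 ± 0.24 in PD-1hi cells, or 19.2-fold (adjusted p = 1.93e-10). H2ac12, whose start lies 178 bases from that of H2bc12 on the opposite strand, differed from naive by 0.36 ± 0.20 in PD-1hi cells (adjusted p = 0.212). The testis-type pair H2bc1 and H2ac1, 281 bases apart, differed by 0.03 and 0.06, neither called.

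H2bc3 had 8.89, 9.12, 8.74 and 9.12 in naive, 11.57, 10.48, 10.58 and 11.43 in memory, 11.76, 12.03, 11.89 and 11.60 in PD-1int and 12.50, 12.34, 12.08 and 12.46 in PD-1hi cells. No pair of subsets overlapped. Its rise in memory, 2.05 ± 0.20 (adjusted p = 9.40e-07), was the largest of any member there, and was followed by 2.86 ± 0.20 in PD-1int (adjusted p = 4.40e-09) and 3.38 ± 0.20 in PD-1hi cells (adjusted p = 3.10e-10).

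H2bc18, on chromosome 3, had 6.78, 6.20, 7.37 and 7.74 in naive, 7.97, 6.97, 7.21 and 8.13 in memory, 8.64, 9.35, 9.35 and 9.10 in PD-1int and 9.38, 9.41, 9.60 and 9.71 in PD-1hi cells. Naive and memory overlapped, and both effector subsets lay above them. H2bc18 rose by 2.09 ± 0.29 in PD-1int (adjusted p = 2.18e-05) and 2.50 ± 0.29 in PD-1hi cells (adjusted p = 1.71e-06), and its memory difference of 0.55 ± 0.29 did not pass (adjusted p = 0.288).

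H2bc9 and H2bc22 rose in PD-1hi cells only narrowly past the threshold. H2bc9 had 4.25, 4.39, 4.64 and 4.70 in naive, 3.94, 3.63, 4.26 and 4.37 in memory, 4.66, 5.28, 5.39 and 4.84 in PD-1int and 5.07, 5.69, 4.82 and 5.06 in PD-1hi cells. All PD-1hi arrays lay above the naive arrays, a rise of 0.67 ± 0.20 (adjusted p = 0.0167) that was lost without naive 1 or PD-1hi 2 (adjusted p = 0.0565 and 0.0695). H2bc22 had 4.84, 4.89, 4.81 and 4.91 in naive, 4.91, 4.95, 4.77 and 4.91 in memory, 4.82, 5.53, 5.22 and 5.28 in PD-1int and 5.44, 5.67, 4.99 and 5.17 in PD-1hi cells. Its PD-1hi arrays also lay above the naive arrays, a rise of 0.46 ± 0.14 (adjusted p = 0.0182) that was lost without PD-1hi 1 or 2 (adjusted p = 0.0552 and 0.0751). In memory H2bc9 had its lowest mean (4.05), a difference from naive of -0.44 ± 0.20 that did not pass (adjusted p = 0.191). H2bc1, H2bc14 and H2bc21, the gene of the H2BE variant known from olfactory neurons, were called in no comparison.

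The H2B promoters show the octamer, ATTTGCAT, in genes that rose and in a gene that did not, H2bc14. Capitals mark the octamer and TATAAA in the same 130-base windows.
H2bc3 (chr13:23746604-23746733, plus strand): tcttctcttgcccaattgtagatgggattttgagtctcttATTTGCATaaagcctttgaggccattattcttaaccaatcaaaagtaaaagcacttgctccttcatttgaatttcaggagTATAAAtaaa
H2bc12 (chr13:22035691-22035820, plus strand): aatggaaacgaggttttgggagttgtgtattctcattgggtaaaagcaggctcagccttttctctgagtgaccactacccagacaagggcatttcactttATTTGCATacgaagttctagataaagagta
H2bc18 (chr3:96269570-96269699, plus strand): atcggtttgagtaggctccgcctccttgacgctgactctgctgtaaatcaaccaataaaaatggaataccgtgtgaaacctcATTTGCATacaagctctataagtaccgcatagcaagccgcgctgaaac
H2bc14 (chr13:21721914-21722043, plus strand): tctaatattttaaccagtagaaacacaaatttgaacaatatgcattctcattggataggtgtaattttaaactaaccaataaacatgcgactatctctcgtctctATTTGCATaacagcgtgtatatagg
The octamer was present on either strand within 250 bases of the start in 5 of 7 H2B genes, against 1.6% of all promoters. It was found in 3 of 5 that rose in PD-1hi cells and in both that did not, H2bc1 and H2bc14. CCAAT was found in all 7 H2B and all 6 H2A windows, against 33.8% of all promoters. The windows of H2ac12 and H2bc12, and those of H2ac1 and H2bc1, overlap, since their starts lie 178 and 281 bases apart. Matches in the shared bases are counted for both genes of a pair. Entries for 27 members were in the table, and H2bc21 and H4c14 were the 2 without one.

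H4 genes all encode the same or nearly the same protein, and 2 of 7 rose in each effector subset, against 11.9% and 13.4% of all genes in PD-1int and PD-1hi cells. H4c9 had 6.73, 6.46, 6.32 and 7.20 in naive, 7.40, 6.99, 6.66 and 7.34 in memory, 8.46, 8.60, 8.49 and 8.26 in PD-1int and 9.07, 8.85, 8.70 and 8.73 in PD-1hi cells. Naive and memory overlapped, and PD-1int and PD-1hi each stood apart. It rose by 1.77 ± 0.17 in PD-1int (adjusted p = 3.62e-07) and 2.16 ± 0.17 in PD-1hi cells (adjusted p = 1.85e-08), and in memory the difference of 0.42 ± 0.17 did not pass (adjusted p = 0.150).

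H4c12 had 11.59, 11.49, 11.59 and 11.87 in naive, 12.004, 11.85, 11.87 and 12.002 in memory, 12.22, 12.51, 12.37 and 12.45 in PD-1int and 12.75, 12.90, 12.61 and 12.72 in PD-1hi cells. The effector subsets did not overlap with each other or with the rest, and the highest naive array lay within the memory range. It rose by 0.75 ± 0.09 in PD-1int (adjusted p = 6.59e-06) and 1.11 ± 0.09 in PD-1hi cells (adjusted p = 3.29e-08). H4c12 was called in all 6 comparisons. Its memory call, 0.29 ± 0.09 (adjusted p = 0.0482), was lost without naive 1, 2 or 3 or without any 1 of the 4 memory arrays (adjusted p = 0.0595 to 0.143), and with only the 8 arrays compared, quantile normalization or median centring (adjusted p = 0.0787, 0.062 and 0.0588).

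H4c14 ranked 3 in its class by the variance ratio of the fit (F) and was called in no comparison, with 6.15, 6.16, 5.78 and 6.80 in naive, 6.31, 6.43, 6.24 and 6.37 in memory, 6.59, 6.66, 6.67 and 6.71 in PD-1int and 5.92, 6.21, 6.75 and 6.74 in PD-1hi cells. Its naive and PD-1hi arrays spread widely (SD 0.43 and 0.41) and spanned the memory and PD-1int arrays. H4c1, H4c2, H4c8 and H4c17 were also uncalled, with means of at most 4.57.

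**Figure D2:**
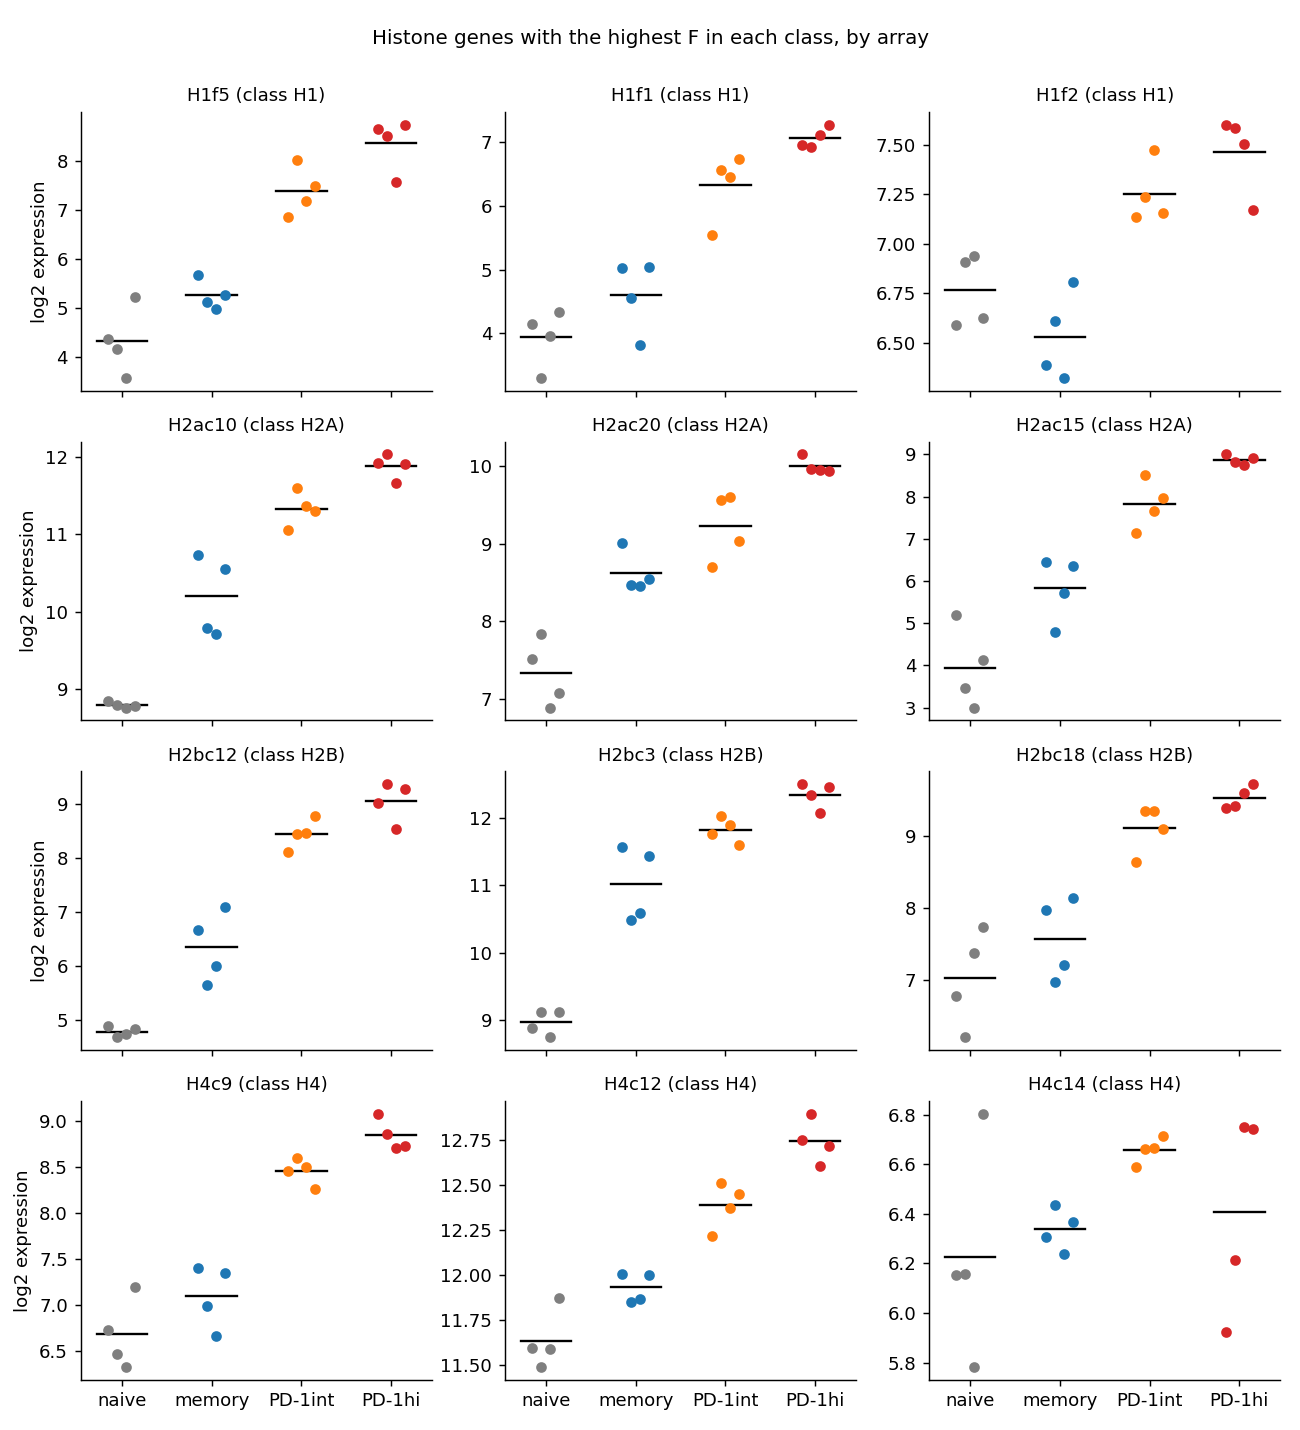
Log2 expression by array (points, 4 a subset; bars are means) for the 3 genes with the highest variance ratio in each class; the vertical scale differs between panels. H2ac10 and H2bc3 separate all 4 subsets, and the naive and PD-1hi arrays of H4c14 span its memory and PD-1int arrays.

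The H4 promoters are shown because H4c9, which rose, and H4c17, which was not called, share much of theirs. Capitals mark GGTCC, part of the H4 promoter element called site II, on either strand, and TATAAA.
H4c9 (chr13:22041363-22041492, minus strand): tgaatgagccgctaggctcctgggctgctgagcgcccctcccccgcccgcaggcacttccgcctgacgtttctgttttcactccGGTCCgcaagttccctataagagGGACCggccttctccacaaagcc
H4c12 (chr13:21750554-21750683, minus strand): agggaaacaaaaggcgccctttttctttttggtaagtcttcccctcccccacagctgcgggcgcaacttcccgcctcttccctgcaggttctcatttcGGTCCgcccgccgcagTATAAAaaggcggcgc
H4c17 (chr13:21811616-21811745, plus strand): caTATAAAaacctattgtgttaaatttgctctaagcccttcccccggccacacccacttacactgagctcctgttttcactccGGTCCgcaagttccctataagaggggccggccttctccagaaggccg
H4c9 and H4c17 shared an unbroken run of 38 bases that begins at positions -59 and -60 of their promoters. H4c17 had means of 3.95 in naive and 4.57 in PD-1hi cells, a difference of 0.62 ± 0.28 (adjusted p = 0.126) with a 95% interval of 0.03 to 1.22. GGTCC was found in 5 of 6 H4 windows, but also in 39.8% of all promoters.

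Across the members, TATAAA was found anywhere in the window, on either strand, in 10 of the 15 genes that rose in PD-1hi cells. It was found in 3 of the 12 others with an entry and in 12.4% of all promoters. Of the 10, H1f1, H1f3, H1f5, H2ac20 and H2ac21 had a match at -42 to -26 on the gene's strand. The matches of H4c12 (-16), H2bc3 (-10) and H4c9 (-137) lay elsewhere, and those of H2bc12 (-198) and H2bc22 (-212) were on the opposite strand. Among the others H2ac1 had a match at -32, H2bc1 at -94 and H4c17 at -128. No order of response is read from these letters, since several genes that rose, such as H2ac10 and H2ac15, had no TATAAA in the window.

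**Figure D3:**
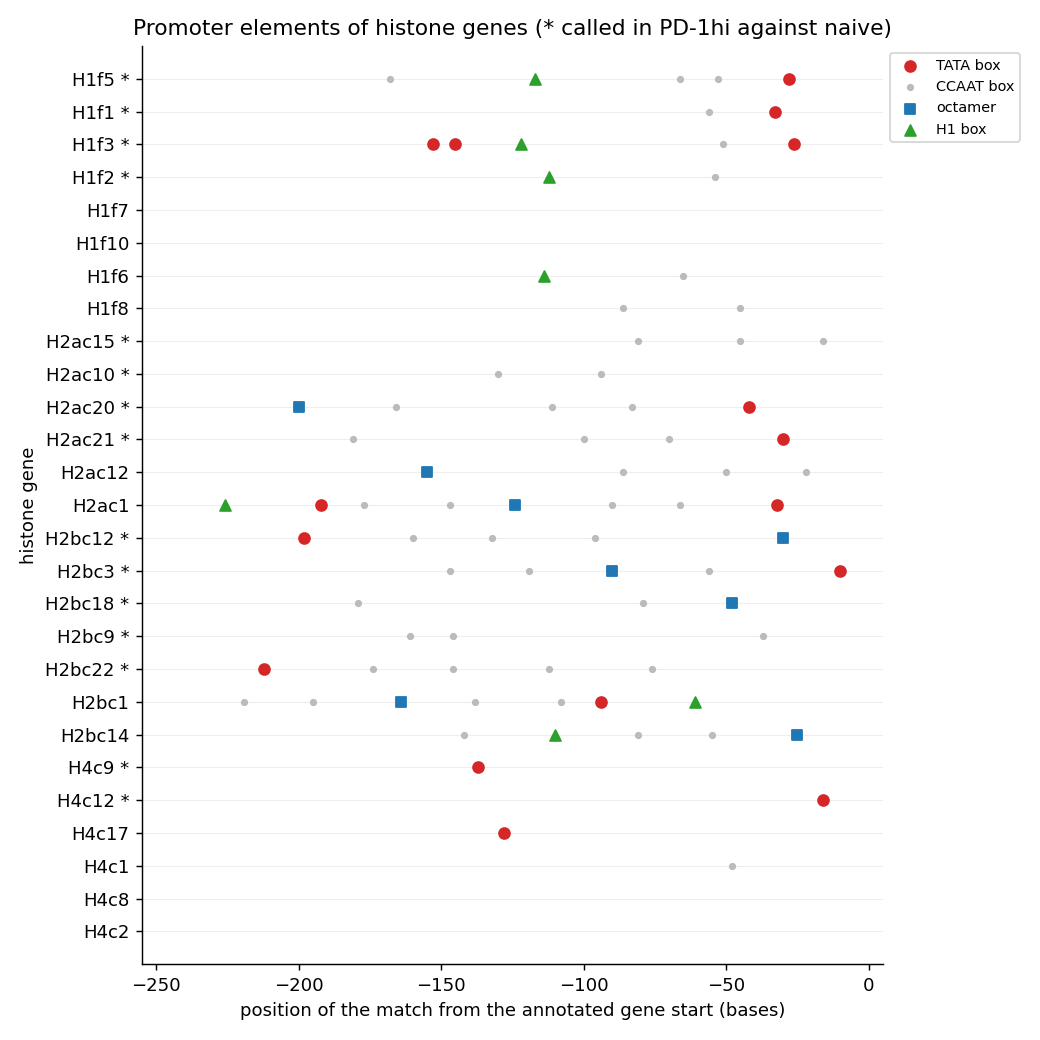
Position of TATA box, CCAAT box, octamer and H1 box matches, on either strand, in the 250 bases before the annotated start of 27 histone genes (x axis, bases from the start); asterisks mark genes that rose in PD-1hi against naive cells. The H1 box lies at -122 to -112 in 4 H1 genes, of which H1f6 carries no asterisk.

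The step at which a gene moved differed between members. Of the 15 genes that rose in PD-1hi cells, 12 had means in the order naive, memory, PD-1int, PD-1hi. The choice of these 15 already places PD-1hi above naive, so it fixes part of that order. Without this choice, 13 of the 29 members had the order, which was not tested against all genes. Among the 15, the largest of the 3 steps was from memory to PD-1int for 10 genes. It was from naive to memory for 4 (H2ac10, H2ac20, H2ac21 and H2bc3) and from PD-1int to PD-1hi for 1 (H1f3). For H2bc3 the memory step was 60.7% of the whole difference between naive and PD-1hi cells, and for H4c9 it was 19.4%. These steps share arrays and their difference was not tested.

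PD-1int cells exceeded memory cells in 11 of 29 members (37.9%, against 8.49% of all genes) and were lower in 0 (against 7.66%; 0 at an unadjusted p under 0.05), with a median of 0.33. H1f5 rose by 2.12 ± 0.31 (adjusted p = 9.29e-05) and H2bc12 by 2.10 ± 0.24 (adjusted p = 6.49e-06). PD-1hi cells exceeded memory cells in 14 members (48.3%, against 10.8%) and were lower in 0 (against 11.1%; 0 at an unadjusted p under 0.05), with a median of 0.49. The largest rises there were H1f5, 3.11 ± 0.31 (adjusted p = 6.11e-07), and H2ac15, 3.05 ± 0.40 (adjusted p = 1.44e-05).

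Between the effector subsets, 3 of 29 members were higher in PD-1hi than in PD-1int cells (10.3%, against 1.37% of all genes) and 0 were lower (against 1.94%; 0 at an unadjusted p under 0.05), with a median of 0.25. H2ac20 rose by 0.78 ± 0.21 (adjusted p = 0.0474), H1f3 by 0.46 ± 0.12 (adjusted p = 0.0379) and H4c12 by 0.36 ± 0.09 (adjusted p = 0.0433). With only the 8 arrays compared H1f3 and H4c12 were not called (adjusted p = 0.152 and 0.0803), nor was H4c12 with median centring (adjusted p = 0.0716) or H2ac20 with array weights (adjusted p = 0.0671). Over all alternatives the adjusted p ran from 0.0327 to 0.166 for H2ac20, from 0.0152 to 0.152 for H1f3 and from 0.012 to 0.154 for H4c12. The PD-1hi mean was above the PD-1int mean in 23 of the 29 members, and in 11907 of all 22180 genes. It was above in all 15 genes that rose over naive in PD-1hi cells. Those genes were chosen through their PD-1hi values, so the 15 are no separate support. Of the 29 members, 10 had PD-1hi arrays all above the PD-1int arrays, against 4.39% of all genes. Each of the 3 calls was lost in at least 1 of the fits without a single array: the count fell to 0 without PD-1int 1, PD-1int 4, PD-1hi 1 or PD-1hi 4, and to 1 without PD-1int 3 or PD-1hi 2. H2ac15 had the largest difference, 1.06 ± 0.40, which did not pass (adjusted p = 0.205).

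Probe sets shared by several histone genes were also called higher than naive, and 0 of them lower (limma), in all 3 other subsets. These 38 probe sets carry 12 different gene lists, so many measure the same transcripts and no single gene can be named from them. Among the 25335 probe sets with 1 or more symbols, 6.52%, 11.5% and 13.1% were called higher in memory, PD-1int and PD-1hi cells than in naive cells. Of the 38, 9, 23 and 22 were. The largest PD-1hi rise was 6.04, for a probe set of H2A genes. Of the 12 probe sets of H3 genes, 0 rose in memory cells, 5 in the PD-1int subset and 3 in the PD-1hi subset, with a PD-1hi median of 0.43 and a range of -0.09 to 1.20. One H3 probe set fell by 0.78 from PD-1int to PD-1hi cells (limma, adjusted p = 0.0333), against 1.83% of probe sets called lower there. Against memory cells, 23 of the 38 were called higher in PD-1int and 24 in PD-1hi cells. In each of these 2 comparisons 1 probe set of H2A genes was called lower. Of all single-symbol genes, 8.49% and 10.8% were higher and 7.66% and 11.1% lower there.

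Genes listed for histone transcription and processing were called mostly higher. The list includes the general cell-cycle genes Ccne1, Cdk2 and E2f1, and the memory calls were Slbp, Ccne1 and E2f1. Of 18 measured genes of histone transcription and 3′ processing, 3 rose and 0 fell in memory, 6 rose and 1 fell in PD-1int, and 11 rose and 1 fell in PD-1hi cells, with medians of 0.10, 0.23 and 0.30. Over all genes 6.7%, 11.9% and 13.4% rose and 5.02%, 10.8% and 13.7% fell, so the 1 that fell is no more than the background share. Slbp, the stem-loop binding protein, rose by 0.52 ± 0.10, 1.06 ± 0.10 and 1.28 ± 0.10 (adjusted p = 0.00181, 2.36e-07 and 1.42e-08). Ccne1, the cyclin E1 gene, rose by 0.94 ± 0.12, 1.37 ± 0.12 and 1.52 ± 0.12. Npat, the coactivator of these genes, rose by 0.27 ± 0.09 in PD-1hi cells (adjusted p = 0.0292). Cpsf3, the nuclease that cuts the mRNA end, fell by 0.46 ± 0.07 in PD-1hi cells (adjusted p = 4.66e-05). Between PD-1hi and PD-1int cells none of the 18 was called (limma; 1 higher and 1 lower at an unadjusted p under 0.05).

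Histone chaperones were called in both directions. Of 25 measured, 6 rose and 1 fell in memory, 9 rose and 5 fell in PD-1int, and 11 rose and 7 fell in PD-1hi cells, against the same shares of all genes. Asf1b, an H3 and H4 chaperone linked to proliferation, rose by 1.13 ± 0.17, 2.11 ± 0.17 and 2.71 ± 0.17 (adjusted p = 0.000148, 2.56e-08 and 6.51e-10), while its paralog Asf1a fell by 0.58 ± 0.09 in PD-1int and 0.48 ± 0.09 in PD-1hi cells (adjusted p = 5.49e-05 and 0.00027). Chaf1a and Chaf1b, subunits of chromatin assembly factor 1, rose by 2.19 ± 0.13 and 1.80 ± 0.16 in PD-1hi cells. Ipo4, an importer of H3 and H4, fell by 1.05 ± 0.13 (adjusted p = 5.07e-06), and Daxx, which deposits H3.3, fell by 0.74 ± 0.12 (adjusted p = 0.000132). Dnajc9 was the 1 gene of this list higher in PD-1hi than in PD-1int cells, by 0.38 ± 0.09 (adjusted p = 0.0329).

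Replacement variants, which are made outside S phase or placed at special sites, rose in 4 of 7 genes in each effector subset. Of all genes 11.9% rose in PD-1int and 13.4% in PD-1hi cells. H2ax, whose product marks DNA breaks when phosphorylated, rose by 1.45 ± 0.24, 2.64 ± 0.24 and 3.15 ± 0.24 in memory, PD-1int and PD-1hi cells (adjusted p = 0.000386, 1.39e-07 and 8.76e-09). Cenpa, the centromeric H3 variant, rose by 0.98 ± 0.14 and 1.46 ± 0.14 in PD-1int and PD-1hi cells. Macroh2a1 fell by 0.30 ± 0.07 in PD-1hi cells (adjusted p = 0.00295).

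DNA replication and mitosis genes also rose in the 3 other subsets. Of 30 replication genes 23, 29 and 29 rose in memory, PD-1int and PD-1hi cells, and of 15 mitosis genes 14, 15 and 15 rose. Over all genes 6.7%, 11.9% and 13.4% rose. Each list was also reduced to a mean per array of values centred on each gene's mean. For histone genes these were -0.58, -0.72, -0.77 and -0.55 in naive, -0.10, -0.43, -0.41 and -0.15 in memory, 0.09, 0.44, 0.38 and 0.35 in PD-1int and 0.59, 0.66, 0.51 and 0.69 in PD-1hi cells. The 4 subsets did not overlap, memory 1 and 4 were the higher memory arrays and PD-1int 1 the lowest PD-1int array. In mitosis genes the memory means were 0.29, -0.92, -0.90 and 0.05, with the same arrays higher, and PD-1int 1 had 0.45 against 0.77 to 0.98 in the other PD-1int arrays. Among single genes, memory 1 and 4 both exceeded memory 2 and 3 in 11 of the 15 histone genes that rose, in 1 of the 14 others, in 26 of 30 replication genes and in 15 of 15 mitosis genes, against 15.2% of all genes. PD-1int 1 was the lowest PD-1int array in 13 of the 15, in 5 of the 14 other members, in 12 of 30 replication genes and in 14 of 15 mitosis genes, against 23.6% of all genes. Memory 1 and 4 and PD-1int 1 were singled out from the same values, so these counts are no separate support for the pattern. With memory 2 and 3 as the only memory arrays, 4 histone genes were called against naive: H2ac10, H2ac20, H2bc3 and H2bc12. The 3 others had differences of 1.301 (H2ac15), 0.74 (H2ac21) and 0.22 (H4c12), beside 1.88, 0.84 and 0.29 with all memory arrays. What part the share of cycling cells has in these differences was not tested.

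**Figure D4:**
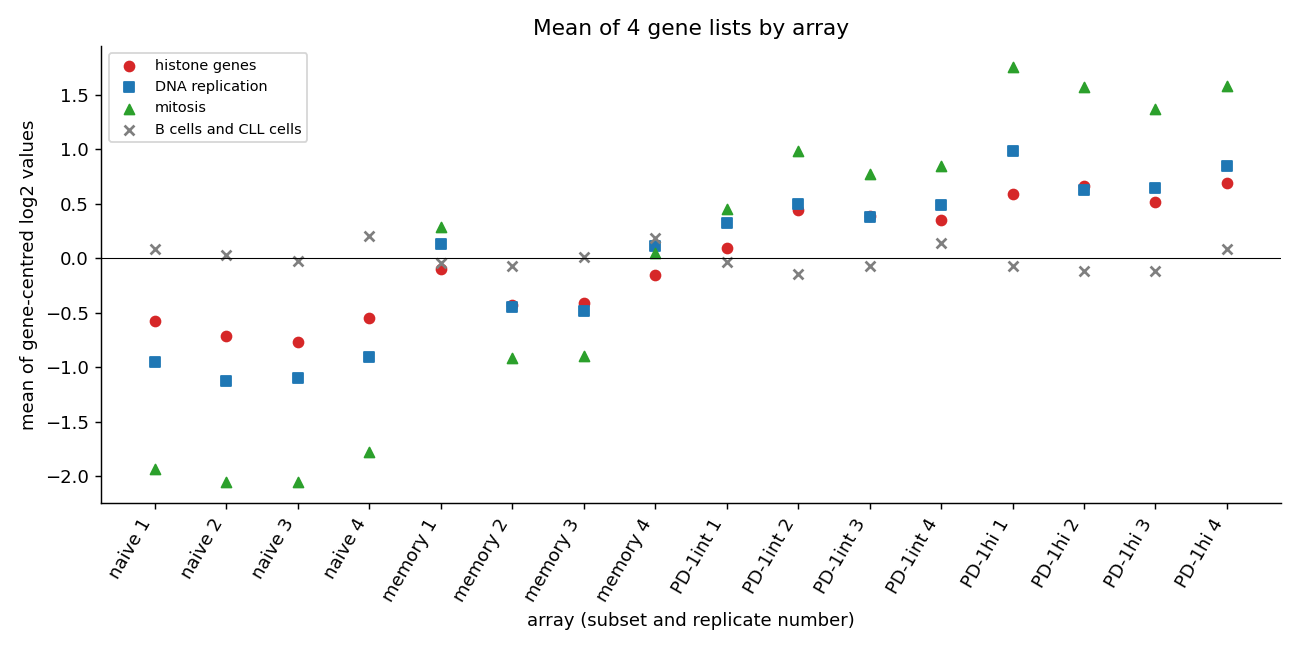
Mean of gene-centred log2 values in each array for 29 histone genes, 30 DNA replication genes, 15 mitosis genes and 11 B-cell and CLL markers. Histone, replication and mitosis means are lowest in naive and highest in PD-1hi arrays, and memory 1 and 4 lie above memory 2 and 3 in all 3 lists.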

How the data were processed

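Affymetrix Mouse Gene ST arrays of 16 sorted samples were analysed, 4 for each of 4 subsets. RNA extraction used the RNeasy Micro kit and labelling the WT Pico kit, per the labels' protocols. The submitters' processing notes name Affymetrix Power Tools, of which the sources used here give neither version nor summarisation method. The authors' deposited values are log2 expression per probe set, and no count or read depth applies: the number of arrays limits the precision, with a median standard error of 0.104 for a difference between 2 subsets. Of 41345 probe sets, 23521 have 1 gene symbol in the platform annotation, 1814 several and 16010 none. For genes with several probe sets the brightest was used.

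All 16 arrays entered 1 limma fit (version 3.58.1, R 4.3.3), with a mean per subset, eBayes and Benjamini-Hochberg adjustment over 22180 genes, at a threshold of 0.05. Tests adjusted this way are reported for the histone genes only after fitting the whole table. The script was tested on simulated data. Genes given with the value of every array are the 3 of each class with the highest moderated F, and members that rose. The members and gene lists were chosen with earlier results of these data known. Promoters, 250 bases before each annotated start, were searched on both strands for 5 short motifs, the TATA box, CCAAT box, octamer, H1 box and the core of H4 site II, counted also where they overlap. Alternatives were a replicate block, only the 8 arrays compared, no dim genes, mean of probe sets, quantile normalization, median centring, trend and robust eBayes, array weights, several-symbol probe sets, memory replicates 2 and 3 alone, and leaving out each array.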

Additional observations from a re-analysis of the deposited data

Results flagged for a closer look

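In 5 of 116 combinations of a histone gene and a subset, 1 array stood far from the other 3; chance alone marks about 1 in 20 groups. H2ac20 was 9.01 in memory 1 against 8.45 to 8.54 in the other memory arrays, and 10.15 in PD-1hi 1 against 9.94 to 9.97. H2ac21 was 8.98 in PD-1hi 3 against 8.46 to 8.50. H4c17 was 4.90 in memory 1 against 3.71 to 3.90. H4c8 was 4.20 in PD-1int 4 against 2.94 to 3.05.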

How the results depend on the processing

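Of 62 calls of a histone gene in a comparison, 52 were lost neither under another setting nor without any single array, and none changed sign. In turn, 20 combinations of a gene and a comparison that were not called passed under at least 1 alternative. Leaving out 1 array moved the PD-1hi against PD-1int count between 0 and 3, memory against naive between 6 and 9, PD-1int against naive between 11 and 15, PD-1hi against naive between 13 and 15, PD-1int against memory between 11 and 13 and PD-1hi against memory between 13 and 14. With only the 8 arrays compared, 5 members were called between PD-1hi and PD-1int cells in place of 3, H2ac10, H2ac15, H2ac20, H2ac21 and H2bc3. With memory replicates 2 and 3 alone, a choice made after seeing the data, 4 in place of 7 were called in memory against naive. With the replicate block the counts were 7, 13 and 15 in memory, PD-1int and PD-1hi against naive, 2 in PD-1hi against PD-1int, and 11 and 14 against memory. The block lost H4c12 and gained H1f5 in memory against naive (adjusted p = 0.0536 and 0.0267), gained H1f3 in PD-1int against naive (adjusted p = 0.0371), and in PD-1hi against PD-1int lost H2ac20 and H4c12 (adjusted p = 0.0588 and 0.0508) and gained H1f5 (adjusted p = 0.0486). The titles number the arrays AT1 to AT4 in every subset without saying what AT or the number marks. Of 24 same-number pairs, 2 had deviations correlated above 0.1, while 9 of 16 arrays were closest to their own number. A pairing of same-numbered arrays is thus neither stated nor excluded, and the main fit takes no account of one. The cause of these shifts was not tested. Leaving out the 40% dimmest genes left 14 members, of which 11 rose in PD-1hi against naive. That filter uses the mean over all 16 arrays, which a rise itself lifts, so the 11 are no separate support. Dim probe sets carry compressed differences, and the files give no background level.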
